A study of Arabidopsis thaliana with 10 samples.

Results

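The vacuolar processing enzyme (VPE) family of Arabidopsis thaliana was followed across 10 microarrays of whole seedlings. The 4 genes are ALPHA-VPE (AT2G25940), BETA-VPE (AT1G62710), GAMMA-VPE (AT4G32940) and DELTA-VPE (AT3G20210). They were chosen by locus: every probe whose accession maps to one of these loci was taken. That gave 8 probes, 1 for ALPHA-VPE, 1 for BETA-VPE, 4 for GAMMA-VPE and 2 for DELTA-VPE. All 4 genes were among the 22349 genes tested. The family was picked with earlier results of the same arrays known, and which of those values drew attention to it is not recorded. Its differences are therefore given as descriptions, and the p-values beside them are not independent support.

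Vacuolar processing enzymes are cysteine proteases of the legumain family that cut after asparagine and aspartate residues. They are made as inactive precursors, become active in the acid vacuole and there trim other proteins into their mature forms. BETA-VPE is known as the seed type, which processes storage proteins. ALPHA-VPE and GAMMA-VPE are known as vegetative types, with roles in senescence, stress and vacuole-mediated cell death. DELTA-VPE is known from the inner layers of the young seed coat, where it acts in programmed cell death.

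Seedlings were raised in short days on agar medium with sucrose and were harvested whole at 7 or 15 days of age. The 4 genotypes were wild type (WT), LFYasEMF1, ult1-3 and the cross LFYasEMF1/ult1-3. LFYasEMF1 carries antisense RNA against EMF1, a Polycomb-group repressor of flower genes, under the LEAFY (LFY) promoter, which is not active in every cell. The allele ult1-3 affects ULT1, a SAND-domain factor of the trithorax group. WT had 2 arrays at each age and every other line had 1, so that 10 arrays fell into 8 groups. The series title asks, in effect, whether ult1-3 restores what is altered in LFYasEMF1. The labels name no number of plants or separate cultures behind an array, so the spread between arrays may be technical. In the fit of genotype and age, the error holds the spread within the WT pairs. It also holds how far each line's age step departs from the step shared by all lines. The p-values of that fit therefore do not measure the spread between arrays alone.

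A level is given here as log2 of the spot's signal over the 75th percentile of its array, so 0 is that percentile. Levels of different probes are not set against each other, since each probe has its own brightness. Between 71.7% and 80.1% of spots were well above background on an array, by the flag of the image software, and the number of arrays limits the precision. All 5 leaf and all 5 root markers tested were well above background on every array, as whole seedlings should give. ULT1 stood between -0.95 and -0.16 in WT, at -2.33 and -2.76 in ult1-3 and at -6.46 and -5.81 in LFYasEMF1/ult1-3. EMF1 was not lower in the libraries labelled LFYasEMF1 (-1.71 at 7 days and -0.49 at 15 days) than in WT of the same age (-3.07 and -1.80, then -1.55 and -1.29). In LFYasEMF1/ult1-3 it was at -3.10 and -1.62, only just below the lower WT array of each age (-3.07 and -1.55). In ult1-3, which has no antisense transgene, it was at -2.55 and -1.73. EMF1 therefore gives no check of either label with the transgene, and both lines are called by their labels throughout. The arrays lay on 3 slides. Slide 1 held WT replicate 1 and LFYasEMF1 at both ages, slide 2 the other 7-day arrays and slide 3 the other 15-day arrays. Genes of the circadian clock differed between the slides: the summed linear level of 4 morning genes ran from 0.0927 to 0.903 on the 4 arrays of slide 1 and from 4.34 to 16.8 on the other 6. For 4 evening genes it ran from 7.32 to 12.9 on slide 1 and from 0.868 to 1.49 elsewhere.

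DELTA-VPE had the widest range of the family, and its highest level was on the 15-day array of LFYasEMF1. In the fit of genotype and age over all arrays, no VPE gene had an adjusted p under 0.05 in any of the 6 comparisons (limma). At an unadjusted p under that threshold stood GAMMA-VPE and DELTA-VPE in LFYasEMF1 against WT and in the double mutant against LFYasEMF1, BETA-VPE in the double mutant against ult1-3 and DELTA-VPE in WT at 15 against 7 days. Of all genes tested, 1.68% were called in LFYasEMF1 against WT, 0.0626% in ult1-3 against WT, 0.81% in the double mutant against WT, 0.89% in the double mutant against LFYasEMF1, 0.385% in the double mutant against ult1-3 and 0% in WT at 15 against 7 days. An unadjusted p under 0.05 was held by 11.9% of all genes in LFYasEMF1 against WT, 19.5% in the double mutant against LFYasEMF1, 3.53% in the double mutant against ult1-3 and 3.64% (813 genes) in WT at 15 against 7 days. The count of 0 for age depends on the fit: 235 genes were called with the replicate number as a block and 1856 by the age term over all 10 arrays. A count of 0 among 4 members lies near these shares and is no result about the family. Whether arrays overlap is told below for single genes as a description. The share of all genes without overlap was not counted, and with so few arrays such separation says little by itself.

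**Figure D1:**
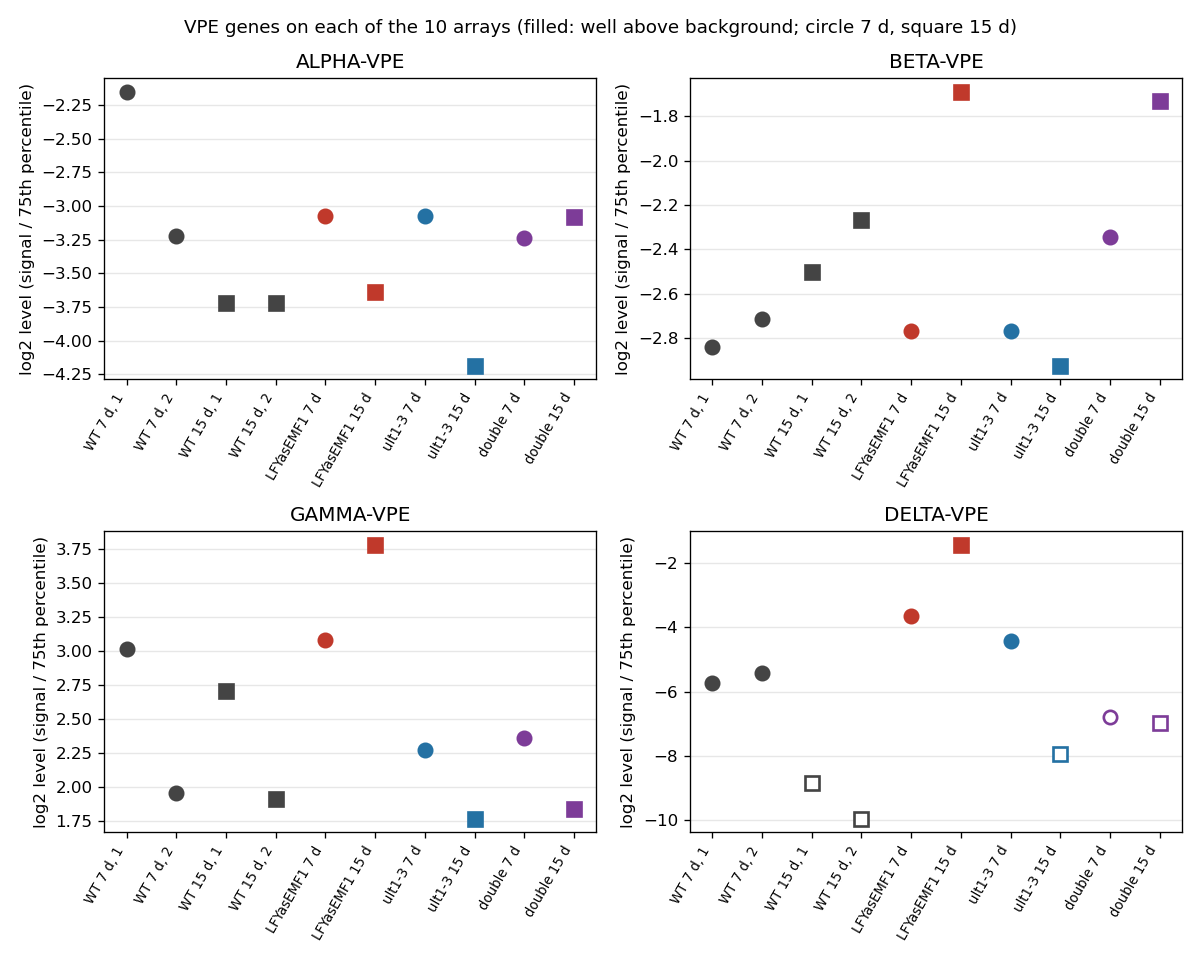
Log2 level (signal over the array's 75th percentile) of the probe tested for each VPE gene on each of the 10 arrays; circles are 7-day and squares 15-day seedlings, and open symbols were not well above background. DELTA-VPE spans from -9.95 to -1.44, with LFYasEMF1 at 15 days highest, while the other 3 genes stay within about 2 log2 units and are filled on every array.

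**Figure D2:**
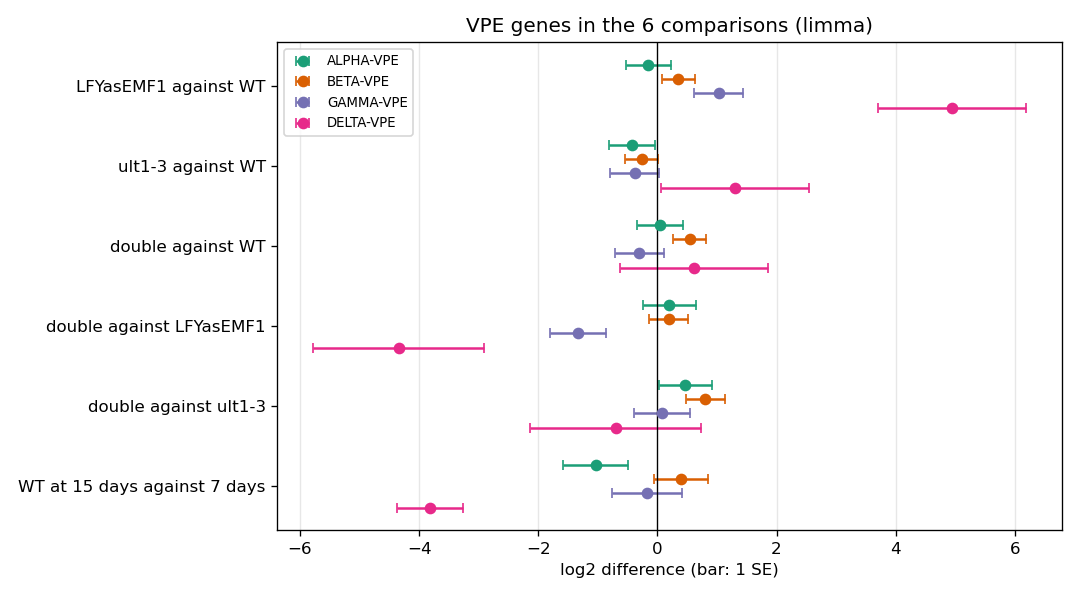
Log2 difference of each VPE gene in the 6 comparisons, with bars of 1 standard error from the limma fit; "double" is LFYasEMF1/ult1-3. The points farthest from 0 belong to DELTA-VPE, at 4.95 in LFYasEMF1 against WT and -4.34 in the double mutant against LFYasEMF1.

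DELTA-VPE, the seed-coat protease, was read by the probes A_84_P24054 and A_84_P815304, and the first, with the higher mean, stood for the gene in the fit. In WT at 7 days its level was -5.74 and -5.42, well above background on both arrays. In WT at 15 days it was -8.84 and -9.95, not well above background on either. In LFYasEMF1 it was -3.64 at 7 days and -1.44 at 15 days, well above background at both. In ult1-3 it was -4.43 at 7 days and, not well above background, -7.94 at 15 days. In LFYasEMF1/ult1-3 it was -6.80 and -6.97, not well above background at either age. Both LFYasEMF1 arrays lay above all other arrays, and LFYasEMF1 was the only line in which this probe was measured at 15 days.

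Over both ages the LFYasEMF1 arrays stood above WT by a fitted 4.95 ± 1.24 (SE) on the log2 scale, with 2 arrays against 4 and an adjusted p of 0.129 (limma). WT was well above background at 7 days only, on 2 of its 4 arrays, so this size takes in background values and no fold is given for it. The size rests on the 15-day array: without it the difference was 2.44 (adjusted p = 0.780), and without the 7-day array of LFYasEMF1 it was 7.46 (adjusted p = 0.0299), past the threshold. With a mean fitted to each of the 8 groups, so that only the WT pairs inform the error, the same difference had an SE of 0.48 and an adjusted p of 0.0122. That fit gives each lone mutant array the spread of the WT pairs.

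The ages were then compared apart in the fit of 8 group means, an analysis chosen after seeing the data. At 7 days LFYasEMF1 stood 1.94 ± 0.68 above WT, 3.85-fold, with an adjusted p of 0.95 (limma). At 15 days the fitted difference was 7.96 ± 0.68 with an adjusted p of 0.0169, and 0.264% of all genes were called in that comparison. WT was not well above background at 15 days, so only a bound is given. On the probe tested and this scale, the level in LFYasEMF1 was at least 91.2-fold higher. On A_84_P815304 the bound was lower, at 30.1-fold. Such a bound sets the brighter group's mean against, on each dim array, the higher of the lowest well-above-background signal of that array and the probe's own signal. The call at 15 days was lost without WT replicate 1 (8.52, adjusted p = 0.115), without WT replicate 2 (7.40, adjusted p = 0.173) and with medians of signal corrected by normexp (4.84, adjusted p = 0.0651). Against the WT array of the same slide, LFYasEMF1 was higher by 2.1 at 7 days and by 7.40 at 15 days.

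The second DELTA-VPE probe, A_84_P815304, correlated with the first at r = 0.93 over the 10 arrays. Its levels were -6.83 and -7.02 in WT at 7 days and -8.83 and -10.04 in WT at 15 days. They were -4.95 and -3.04 in LFYasEMF1, -5.84 and -9.23 in ult1-3, and -5.83 and -9.07 in the double mutant, each at 7 and then 15 days. LFYasEMF1 was again highest at both ages, 3.94-fold above WT at 7 days and at least 30.1-fold above it at 15 days. The probes disagreed on the double mutant at 7 days. There the difference from the WT mean was -1.22 on A_84_P24054, which was not well above background, and 1.09 on A_84_P815304, which was.

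DELTA-VPE differed with age in opposite directions in WT and LFYasEMF1. In WT the log2 difference of 15 against 7 days was -3.81 ± 0.56, at least 5.16-fold lower, and the 2 ages did not overlap. Neither 15-day array was well above background. The unadjusted p was 0.000395 and the adjusted p 0.686 (limma, 2 arrays at each age). With the replicate number as a block the same difference passed, at an adjusted p of 7.92e-07 in a fit with 1 residual degree of freedom; WT replicate 1 lay on slide 1 at both ages. In ult1-3 the 15-day array was lower by at least 6.64-fold, from 1 array at each age. In LFYasEMF1 the 15-day array was higher by 2.20, 4.59-fold. The difference between the age steps of LFYasEMF1 and WT was 6.01 ± 0.97 with an unadjusted p of 0.000666 and an adjusted p of 1.00 (limma), and 0% of all genes were called there, with 372 at an unadjusted p under 0.05. When slide 1 entered the fit, again with 1 residual degree of freedom, the adjusted p was 5.6e-05. On the second probe the age step was at least 2.04-fold lower in WT, at least 2.50-fold lower in ult1-3 and 3.75-fold higher in LFYasEMF1.

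In the double mutant the level of DELTA-VPE lay below that of LFYasEMF1 at both ages. The fitted difference was -4.34 ± 1.43 with an adjusted p of 0.176 (limma, 2 arrays in each line). On A_84_P815304 the mean difference was smaller, at -3.46. On the probe tested the level was at least 20.3-fold lower over both ages, and the lines did not overlap. At 7 days it was at least 8.94-fold lower on the probe tested but 1.85-fold lower on A_84_P815304. At 15 days it was at least 46.1-fold lower on the probe tested and at least 17.4-fold lower on the other. The 2 lines share no slide, so no difference within a slide can be given, and with slide as a term in the fit the estimate was -3.95 with an adjusted p of 0.326. Against WT the double mutant differed by 0.61 ± 1.24 (adjusted p = 0.835) and ult1-3 by 1.31 ± 1.24 (adjusted p = 0.934), with overlapping arrays in both (limma). At 15 days neither line nor WT was well above background, so no fold is given among them.

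**Figure D3:**
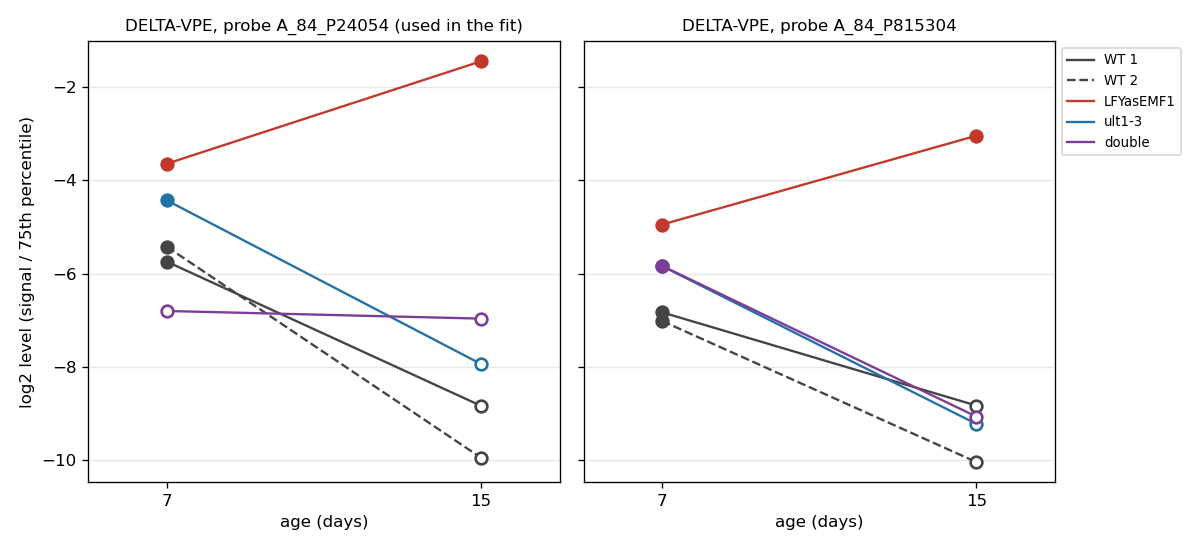
Log2 level of both DELTA-VPE probes at 7 and 15 days, with a line for each genotype (WT replicates apart, "double" for LFYasEMF1/ult1-3) and open symbols where the spot was not well above background. LFYasEMF1 goes up by 2.20 and 1.91 between the ages, while WT goes down on both probes and the 2 probes place the double mutant differently at 7 days.

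Genes of the ovule and seed coat were read beside DELTA-VPE, since the gene is known from that tissue. In bulk seedlings, more cells of a type and more RNA per cell cannot be told apart. Of 10 markers, 5 passed the filter; INO, TT2, TT1, TT12 and BAN were well above background on no array. Of those 5, STK and TT16 were well above background on no WT array and passed only through the lines with the transgene, so no count, median or summed level over the list is given. STK, a MADS-box gene of ovule identity, was at least 87.3-fold higher in LFYasEMF1 than in WT. SHP2, well above background in WT, was higher by 5.16 ± 0.49 (adjusted p = 0.00169, limma), and SHP1, also measured in WT, by 4.27 ± 0.60 (adjusted p = 0.0137); both are carpel and ovule MADS-box genes. BEL1, the remaining marker measured in WT, differed by 0.64 ± 0.31 (adjusted p = 0.489, limma) and was not called.

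The ovule genes and DELTA-VPE did not run in parallel on every array. STK was at -1.26 and -1.38 in LFYasEMF1 at 7 and 15 days, about level between the ages. In the double mutant STK was well above background at both ages, at -6.35 and -4.17, where the tested DELTA-VPE probe was not. The other DELTA-VPE probe was well above background there at 7 days, at -5.83. TT16, a MADS-box regulator of the seed coat, was at -7.84 in LFYasEMF1 at 7 days and, well above background, at -3.65 at 15 days. On the double mutant's 7-day array TT16 was also well above background, at -5.85. In WT and ult1-3 TT16 was well above background on no array. The part of ovule or seed-coat cells in the DELTA-VPE values was not tested. Of 10 tapetum and pollen-wall genes, as anther markers, 4 were tested and none was called in any comparison. Only 3 of these were well above background on some WT array, so no summed level is set against WT. With so few read, the list cannot be set against the ovule genes. MS1, AMS, TDF1, DYT1, MS2 and MYB80 were well above background on no array. The anther markers A9 and A6 were dropped for their symbols and not read.

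**Figure D4:**
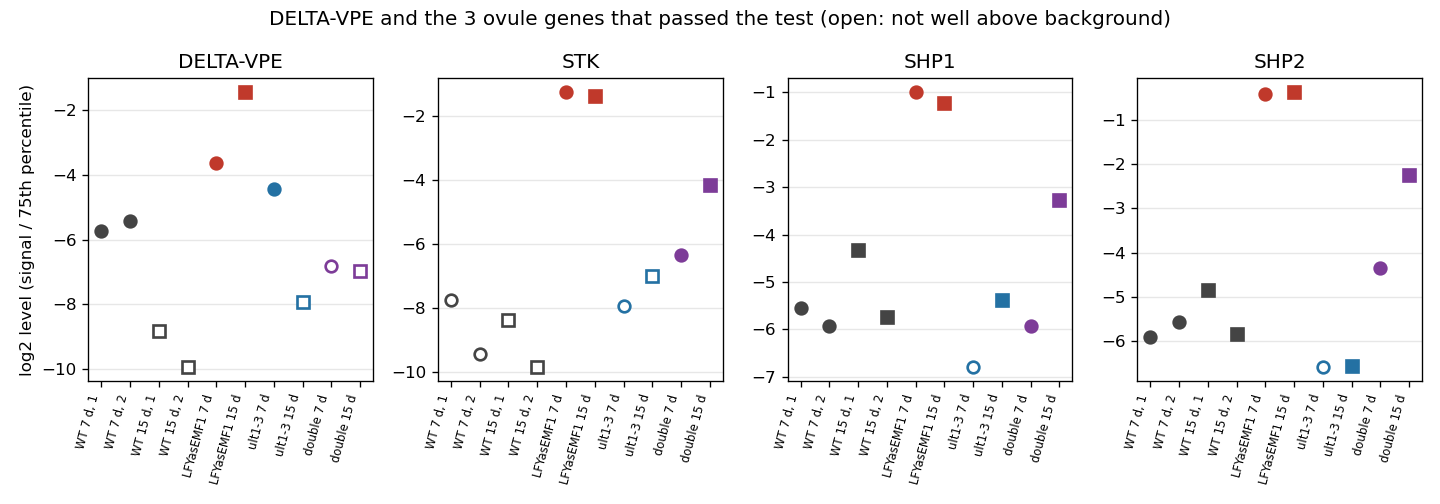
Log2 level of DELTA-VPE (probe A_84_P24054) and of STK, SHP1 and SHP2 on the 10 arrays; circles are 7-day and squares 15-day seedlings, and open symbols were not well above background. Each of the 4 genes is highest on the 2 LFYasEMF1 arrays. In the double mutant STK is measured at both ages (-6.35 and -4.17) while this DELTA-VPE probe is not. The other DELTA-VPE probe, not drawn, was measured there at 7 days. STK, SHP1 and SHP2 are drawn because they were called higher in LFYasEMF1 than in WT, so that difference follows from the choice. BEL1, which was not called, and TT16 are not drawn.

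GAMMA-VPE, the vegetative type known from cell death and stress, was well above background with all 4 probes on all 10 arrays. On the probe tested, A_84_P13875, WT replicate 1 was at 3.01 at 7 days and 2.70 at 15 days, and WT replicate 2 at 1.96 and 1.91. LFYasEMF1 was at 3.08 and 3.78. In ult1-3 the levels were 2.27 and 1.77, and in the double mutant 2.36 and 1.83. All 4 arrays of slide 1 (2.70 to 3.78) lay above all 6 arrays of slides 2 and 3 (1.77 to 2.36). The same held for each of the other 3 probes.

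LFYasEMF1 stood above WT in GAMMA-VPE by 1.03 ± 0.41, 2.04-fold, with an adjusted p of 0.376 (limma); the 2 arrays lay above all 4 WT arrays. Within slide 1 the difference was smaller. Against the WT array of the same slide it was 0.07 at 7 days and 1.07 at 15 days. On the other 3 probes it was between -0.18 and -0.06 at 7 days and between 0.86 and 1.14 at 15 days. With slide as a term the estimate was 0.57 with an adjusted p of 0.437. WT replicate 1 was above replicate 2 by 1.06 at 7 days and 0.79 at 15 days, and the clock genes given above separated the same 2 replicates. The part of the clock or the slide in these values was not tested.

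The double mutant stood below LFYasEMF1 in GAMMA-VPE, with a log2 difference of -1.33 ± 0.48 (adjusted p = 0.199, limma), 2.52-fold, and no overlap. These lines lie on different slides, and with slide as a term the estimate was -0.41 (adjusted p = 0.613). Against WT, the estimates were -0.38 ± 0.41 in ult1-3 and -0.30 ± 0.41 in the double mutant, and with slide as a term they were 0.09 and 0.16. The double mutant and ult1-3, which share slides at both ages, differed by 0.08 ± 0.48 (adjusted p = 1.00). In WT the 2 ages overlapped (-0.18 ± 0.59, adjusted p = 1.00).

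**Figure D5:**
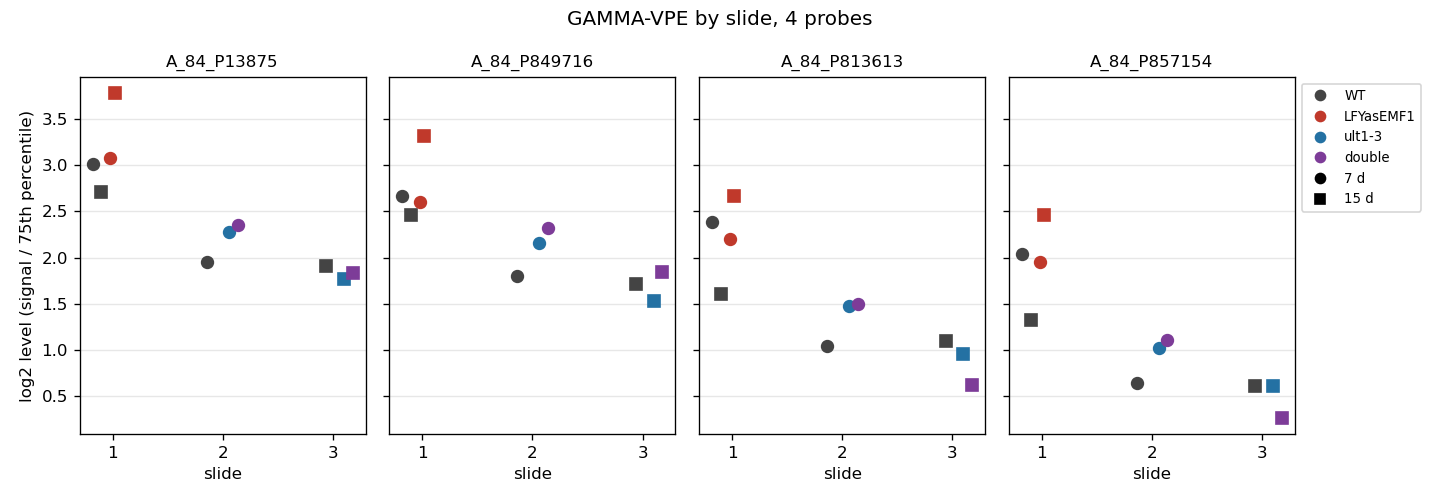
Log2 level of the 4 GAMMA-VPE probes by slide; colour marks the genotype ("double" for LFYasEMF1/ult1-3), circles are 7-day and squares 15-day seedlings. On each probe the 4 arrays of slide 1 lie above the 6 of slides 2 and 3, and within slide 1 the 15-day LFYasEMF1 array is the highest point.

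ALPHA-VPE, the other vegetative type, was well above background on all 10 arrays. In WT its level was -2.15 and -3.23 at 7 days and -3.72 and -3.72 at 15 days. LFYasEMF1 was at -3.07 and -3.64, ult1-3 at -3.07 and -4.19, and the double mutant at -3.23 and -3.08. The double mutant was the only line whose 15-day array was not lower than its 7-day array. The WT ages did not overlap, and 15 days differed from 7 days by -1.03 ± 0.54 (adjusted p = 1.00, limma). The 2 WT arrays at 7 days, which lay on different slides, differed by 1.07, as much as the ages did. LFYasEMF1 differed from WT by -0.15 ± 0.38 (adjusted p = 0.910), ult1-3 by -0.42 ± 0.38 (adjusted p = 0.934) and the double mutant by 0.05 ± 0.38 (adjusted p = 0.963). The arrays overlapped in each of these, and also in the double mutant against LFYasEMF1 (0.20 ± 0.44) and against ult1-3 (0.47 ± 0.44).

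BETA-VPE, the seed type, was also well above background on every array. In WT it was at -2.84 and -2.71 at 7 days and at -2.50 and -2.27 at 15 days. LFYasEMF1 was at -2.77 at 7 days and -1.69 at 15 days, the highest level of the gene. In ult1-3 it was at -2.77 and -2.92, and in the double mutant at -2.34 and -1.73. The 15-day arrays of the 2 lines with the antisense transgene were thus the 2 highest, and the other 8 arrays lay between -2.92 and -2.27. The double mutant stood above ult1-3, on the same slides, by 0.81 ± 0.32, 1.75-fold, with no overlap and an adjusted p of 1.00 (limma). Against WT the double mutant was at 0.54 ± 0.28 (adjusted p = 0.386), LFYasEMF1 at 0.35 ± 0.28 (adjusted p = 0.689) and ult1-3 at -0.26 ± 0.28 (adjusted p = 0.934), with overlapping arrays in each. The double mutant and LFYasEMF1 overlapped too (0.19 ± 0.32). WT at 15 days was above WT at 7 days on both arrays, by 0.39 ± 0.46 (adjusted p = 1.00).

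Among the 4 genes, GAMMA-VPE and DELTA-VPE had the highest correlation over the 10 arrays (r = 0.69), and the other 5 pairs lay between -0.16 and 0.32. Both of these genes were highest on the 15-day LFYasEMF1 array, and the arrays share slides and ages, so the values are a description. The genes most like each VPE gene were named by the highest Pearson r over the same arrays. For DELTA-VPE they were NUDT4 (0.93), AT1G04090 (0.91) and AT1G76230 (0.91). For GAMMA-VPE they were AT5G59960 (0.98), BAM4 (0.97) and ESL1 (0.96). For ALPHA-VPE they were ILL3 (0.94), DUR (0.93) and BHLH32 (0.92). For BETA-VPE they were UGT76E12 (0.96), CYP81G1 (0.93) and BGLU27 (0.93), of which UGT76E12 and BGLU27 were well above background on 3 arrays only.

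Storage proteins and seed maturation genes, the substrates and setting of the seed type, were mostly dim. Of 17 entries 14 were tested. On the 7-day double mutant array 11 of these were well above background, on its 15-day array 4, and on the WT arrays 2 to 9. The 11 take in genes that were well above background on no WT array. In LFYasEMF1 against WT none was called. In the double mutant against WT 1 was called, SESA5, a 2S albumin, which passed the filter through 1 array alone, the 7-day double mutant at -5.76. All other SESA5 values were not well above background, so its call is no result about the list. Of the 14 genes, 9 were well above background on some WT array, and the others passed only through another line. For that reason no summed level of the list is set against WT.

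Papain-like cysteine proteases, a second class of vacuolar and cell-death proteases, were compared as 10 genes, all tested. RD21C, RD19B, RD19C, ALP2, CTB1, CTB2, CTB3 and THI1 were dropped because RefSeq does not list those symbols for their loci, so they were not read. SAG12, a senescence protease, passed the filter through the 15-day LFYasEMF1 array alone, at -4.28, so it is left out of the directions given here. In LFYasEMF1 against WT the other genes were higher except XCP2 (-0.31), and none of the list was called. RD19A, a drought-responsive protease, differed by 1.48. In the double mutant against LFYasEMF1 every gene other than SAG12 was lower, and none was called. The summed level of all 10 followed the slides: WT replicate 1 on slide 1 gave 116.3 to 134.6, WT replicate 2 on the other slides 55.2 to 63.9, LFYasEMF1 on slide 1 gave 137.0 to 155.1 and the lines on slides 2 and 3 gave 52.6 to 74.9. The part of the slide in these values was not tested.

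Other genes of the pathway gave no call in any of the 6 comparisons. Among the metacaspases, another class of cell-death protease, 5 of 9 were higher in LFYasEMF1 than in WT (median 0.06). In ult1-3 (median -0.37) and in the double mutant (median -0.36) 8 of 9 were lower than in WT of all slides. Their summed level was 8.58 to 11.07 in WT on slide 1 and 5.59 to 6.77 in WT on slides 2 and 3. On those latter slides it was 5.96 to 7.32 in ult1-3 and 5.82 to 7.30 in the double mutant, not below WT. The part of the slide in these values was not tested. All 3 cystatins tested, which inhibit papain-like proteases, were higher in LFYasEMF1 (median 0.55). Of 14 genes of vacuolar sorting, which carry precursors to the vacuole, 12 were lower in LFYasEMF1 with a median of -0.12. Among 7 other vacuolar proteins 3 were higher and 4 lower (median -0.04). Of 17 genes of leaf senescence and salicylic acid defence 9 were higher and 8 lower in LFYasEMF1 (median 0.10), and 12 were lower in the double mutant than in LFYasEMF1 (median -0.40). The summed level of that list was 49.9 to 84.6 on the 4 arrays of slide 1 and 25.4 to 43.3 on the other 6, with the WT replicates split in the same way. In WT at 15 against 7 days, the papain-like proteases other than SAG12 were lower except CEP3 (0.26). Of the 9 metacaspases 6 were lower there, with a median of -0.56 against -0.01 over all genes.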

How the data were processed

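The deposited tables hold 1-colour spot intensities, which per the file headers are background-subtracted and not scaled between arrays; the image software was Agilent Feature Extraction 10.7.1.1. The authors' value table also holds intensities; its column medians (966.71 to 970.13) are close together, its scaling is not stated, and it served as an alternative. Outlier-marked spots were left out, and log2 of signal over the array's 75th percentile was taken. Accessions gave a locus for 34358 of 43603 probes through RefSeq names (assembly TAIR10.1, names only). A gene's value is its brightest probe on average that was well above background on at least 1 array, which left 22349 genes. Tests used limma 3.58.1 in R 4.3.3 with Benjamini-Hochberg adjustment at 0.05: genotype and age over 10 arrays, age over the 4 WT arrays, and 8 group means. Scripts were tested on simulated data.

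Members and lists were chosen with earlier results of these data known. The genes named are the VPE genes, the 3 genes most correlated with each, called list members, at most 5 a list and comparison, and others singled out after their values were seen (SAG12, RD19A, XCP2, CEP3, BEL1, TT16). From 13 lists, 16 entries whose symbol RefSeq does not list for that locus were dropped; of 117 left, 101 were tested. Sequences were not used here.

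Alternatives were quantile normalization, the authors' table, median signals with normexp (offset 50), filters of 5 arrays and of none, dim signals raised to a floor, averaging over the probes of a gene, an intensity trend with robust variances, slide terms, fits within slides, group means, a replicate block and leaving out each array. The second DELTA-VPE probe and the contrasts at single ages were added after seeing the data.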

Additional observations from a re-analysis of the deposited data

Results flagged for a closer look

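The age step, 15 minus 7 days, ran opposite to that of WT, whatever WT arrays were paired, for 3 genes in 1 line each. DELTA-VPE was higher at 15 days by 2.20 in LFYasEMF1, with WT steps of -4.53 to -3.10. The difference of the steps was 6.01 ± 0.97 (limma, adjusted p = 1.00). ALPHA-VPE was higher at 15 days by 0.15 in LFYasEMF1/ult1-3, with WT steps of -1.57 to -0.50. That difference of steps was 1.18 ± 0.94 (limma, adjusted p = 1.00). BETA-VPE had a step of -0.16 in ult1-3, with WT steps of 0.21 to 0.57. That difference was -0.55 ± 0.79 (limma, adjusted p = 1.00). Each mutant step comes from 1 array at each age.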

How the results depend on the processing

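Of 552 values of 26 gene results under the alternatives, 518 kept their direction and side of the threshold, 3 lost the call, 4 passed it and 27 turned sign; 126 of 129 counts of called VPE genes did not move. The count in LFYasEMF1 against WT was 1 (DELTA-VPE) with 8 group means, and ran from 0 to 1 with 1 array left out; the replicate block gave 1 (DELTA-VPE) in WT at 15 against 7 days, with -3.81 and an adjusted p of 7.92e-07 (limma) in a fit with 1 residual degree of freedom. No label ties WT arrays of the same number, though replicate 1 lay on slide 1 at both ages, and the deviations of same-numbered arrays at the 2 ages correlated at 0.35 over genes. Slide 1 as a term took the age difference of DELTA-VPE in LFYasEMF1 past the threshold (6.01, adjusted p = 5.6e-05), also with 1 residual degree of freedom. Signs turned as follows; the cause was not tested. ALPHA-VPE with normexp was 0.12 in LFYasEMF1 against WT and -0.044 in the double mutant against LFYasEMF1. DELTA-VPE in the double mutant was -0.11 against WT with a floor, and 0.081 against ult1-3 on the other probe. GAMMA-VPE against WT was 0.085 in ult1-3 and 0.16 in the double mutant under each of the 3 slide settings. With 1 array left out, ALPHA-VPE ran from -0.29 to 0.12 in LFYasEMF1 against WT, from -0.50 to 0.59 in the double mutant against WT, from -0.35 to 0.74 against LFYasEMF1 and from -0.073 to 1.01 against ult1-3. BETA-VPE ran from -0.031 to 0.73 in LFYasEMF1 and from -0.65 to 0.12 in ult1-3 against WT, and from -0.19 to 0.57 in the double mutant against LFYasEMF1. GAMMA-VPE ran from -0.70 to 0.35 in WT at 15 against 7 days and from -0.17 to 0.32 in the double mutant against ult1-3. DELTA-VPE in the double mutant ran from -0.43 to 1.64 against WT and from -1.76 to 0.36 against ult1-3. The comparison of the double mutant with LFYasEMF1 within slides was not run, since they share none. Over all genes the 8 group means called 155 in LFYasEMF1 against WT where the fit of genotype and age called 375, 5 for 14 in ult1-3, 68 for 181 in the double mutant, 23 for 199 in the double mutant against LFYasEMF1 and 24 for 86 against ult1-3. In WT at 15 against 7 days 0 genes were called, 235 with the replicate block and 1856 by the age term over all arrays. Each mutant has 1 array at each age, and DELTA-VPE was well above background on 5 of 10 arrays with the probe tested. Its folds against WT at 15 days, and between the ages in WT and in ult1-3, are therefore bounds. So are its folds between LFYasEMF1 and the double mutant, except at 7 days on A_84_P815304.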
